A study of Drosophila melanogaster with 6 samples.

Results

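The 10 genes described here encode proteins of fly blood cells (haemocytes) and the scavenger receptors that such cells carry: NimC1, NimC2, NimC4, eater, Hml, Sr-CI, Sr-CII, crq, Pxn and He. They were taken by name, as every probe set whose only gene symbol in the platform's probe table is one of these, which gave 11 probe sets of 18769, or 10 genes of 11983. Pxn had 2 probe sets and each other gene had 1. Whole adult heads of Drosophila melanogaster at 25 days of age (aged, 3 arrays) were compared with heads at 2 days (young, 3 arrays). All flies, of both ages, carried P{GawB}elavC155, a GAL4 enhancer trap in elav, so that neurons make this yeast activator, in a background given in the labels as W*, and were kept at 25 °C with 12 hours of light and 12 hours of darkness. The labels name no further transgene, do not state their sex, and do not say whether the 3 arrays of each age stem from separate flies. The p-values therefore reflect how far these arrays differ, which could be technical variation alone.

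Haemocytes of the plasmatocyte type are the macrophages of the fly. They engulf bacteria and dying cells through surface receptors, among them the Nimrod proteins, which carry EGF-like repeats, the class C scavenger receptors and the CD36-like receptor Croquemort. They also secrete clotting proteins and components of the basement membrane. Adult flies keep haemocytes that are attached to tissues, including in the head, but most of the RNA of a whole head comes from neurons, glia, the eye, fat body, muscle and cuticle. In whole-head RNA, more cells of a type and more RNA per cell cannot be told apart.

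The unit throughout is the RMA value, a log2 measure of a probe set that has been brought to a common distribution across arrays; 1 unit more is a 2-fold higher signal. Array medians lay between 4.85 and 4.93. The median mean level over all probe sets, 4.92, is used below as a mark of dim signal. Differences can be compressed at low levels, and the level at which this begins was not measured. Over all probe sets, Pearson's r was 0.991 to 0.998 for the 6 array pairs within an age and 0.984 to 0.9895 in the 9 pairs that crossed the ages. Young replicate 2 stood apart, at least 1 log2 unit above every other array at 155 probe sets, and aged replicate 3 did so at 25, while none of the 11 probe sets of these genes were among them. For the 10 genes and the gene lists, calls that were lost without either array, or without both, are named below; the gene order along 2L and the nearest profiles use all 6 arrays. The number of arrays limits the precision of every value.

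The genes did not move as 1 group. In aged heads Hml, Sr-CI, NimC1 and eater were higher than in young heads, by 0.42 to 0.75 log2 units, whereas NimC4 and Pxn were lower by about 1 unit. The probe sets of crq, NimC2, He and Sr-CII did not pass the test, and 3 of these 4 lay below the median level of all probe sets. In total 4 of 11 probe sets passed upwards and 2 passed downwards (limma, Benjamini-Hochberg adjusted p under 0.05 over all 18769 probe sets), where over all probe sets 21.7% passed, 13% higher and 8.7% lower in aged heads. With each array centred on its median, the same 6 passed, and over all probe sets 1859 were then higher and 1951 lower, in place of 2438 and 1633. The median difference was 0.13 over the 11 probe sets and -0.02 over all probe sets. At 6 of the 11, the same 6 that passed, aged and young arrays were fully separate, 4 higher and 2 lower in aged heads, against 40.8% of all probe sets (21.7% higher and 19.2% lower).

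**Figure D1:**
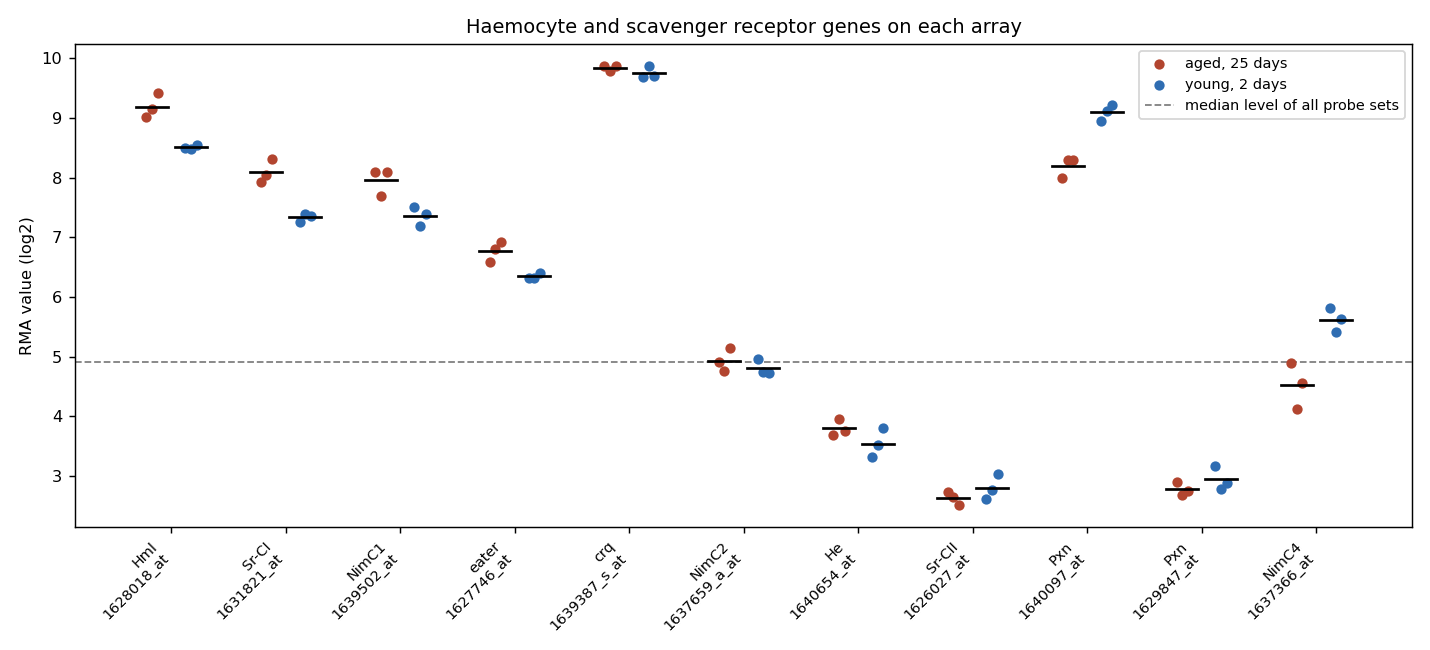
RMA values (log2) of each probe set on each array, with aged heads (25 days, red, left) beside young heads (2 days, blue, right); bars are means of 3 arrays and the dashed line is the median level of all probe sets, 4.92. Aged arrays lie above all young arrays for Hml, Sr-CI, NimC1 and eater and below all of them for NimC4 and for 1 of the 2 probe sets of Pxn.

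Hml (CG7002, on chromosome arm 3L) encodes hemolectin, a large secreted protein of the clot that is widely used as a plasmatocyte marker. Its values were 9.01, 9.14 and 9.42 in aged heads, against 8.49, 8.48 and 8.54 in young heads. The lowest aged array lay 0.47 above the highest young array. The mean was 9.19 ± 0.21 in aged heads and 8.50 ± 0.03 in young heads (SD, n = 3 arrays each), a difference of 0.69 ± 0.11 (SE, limma adjusted p = 0.00500) or 1.61-fold, with a 95% confidence interval of 1.35 to 1.91.

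Sr-CI (CG4099, on 2L) encodes a class C scavenger receptor that binds bacteria. It had values of 7.93, 8.04 and 8.31 in aged heads and 7.26, 7.39 and 7.36 in young heads. Again every aged array exceeded every young one, and aged replicate 3 was the highest. The difference was 0.75 ± 0.11 (adjusted p = 0.00329), or 1.69-fold (95% confidence interval 1.42 to 2.00), which is larger in size than at 96.4% of all probe sets.

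NimC1 (CG8942, on 2L) and eater (CG6124, on 3R) encode phagocytic receptors for bacteria of the Nimrod family. NimC1 read 8.09, 7.69 and 8.10 in aged heads, against 7.51, 7.18 and 7.39 in young heads, and eater read 6.58, 6.80 and 6.92 in aged heads, against 6.32, 6.31 and 6.40 in young heads. The ages were separate in both genes but by narrow gaps, 0.19 for NimC1 and 0.18 for eater. NimC1 was higher by 0.60 ± 0.13 (adjusted p = 0.0185), or 1.52-fold, and eater by 0.42 ± 0.10 (adjusted p = 0.0202), or 1.34-fold. Both calls were lost when some single arrays were left out, with differences between 0.34 and 0.61. NimC1 did not pass without aged replicate 1 (0.54, adjusted p = 0.0716), aged replicate 3 (0.53, 0.0668) or young replicate 3 (0.61, 0.0523). The gene eater did not pass without aged replicate 2 (0.41, adjusted p = 0.0739) or aged replicate 3 (0.34, 0.0581), or with quantile normalization (0.32, 0.0592).

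Among aged arrays, replicate 3 was the highest at each of the 4 genes that rose and replicate 1 the lowest at 3 of them. Without aged replicate 3, the differences were 0.57 for Hml (adjusted p = 0.00836), 0.65 for Sr-CI (0.00690), 0.53 for NimC1 and 0.34 for eater. Without young replicate 2 and aged replicate 3 together, Hml (0.56, adjusted p = 0.0173) and Sr-CI (0.67, adjusted p = 0.0104) still passed, and NimC1 (0.44, adjusted p = 0.0970) and eater (0.33, adjusted p = 0.0965) did not.

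NimC4 (CG16876, on 2L), also called simu, encodes a receptor for apoptotic cells that is known from embryonic macrophages and glia. Its values were 4.89, 4.12 and 4.56 in aged heads, against 5.81, 5.41 and 5.63 in young heads. All aged arrays were below all young arrays and below the median level of all probe sets. NimC4 fell by 1.10 ± 0.19 (limma adjusted p = 0.00788), or 2.14-fold, with a 95% confidence interval of 1.56 to 2.93. The aged level ends in the dim range, where differences can be compressed. It passed in each of the 15 alternative analyses.

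Pxn (CG12002, on 3L) encodes peroxidasin, a secreted peroxidase that cross-links collagen IV in basement membranes. The brighter of its probe sets read 7.99, 8.29 and 8.29 in aged heads, against 8.95, 9.12 and 9.21 in young heads, with a gap of 0.66 between the nearest arrays. The difference was -0.90 ± 0.11 (adjusted p = 0.00201), so that Pxn was 1.87-fold lower in aged heads (95% confidence interval 1.56 to 2.23). The other probe set lay near the bottom of the scale, at 2.90, 2.67 and 2.75 in aged heads and 3.17, 2.78 and 2.88 in young heads. Its arrays overlapped and its difference of -0.17 ± 0.12 did not pass (adjusted p = 0.346). Its 95% confidence interval of -0.44 to 0.10 does not reach the -0.90 of the first. At so dim a level differences can be compressed, so the sizes of the 2 probe sets cannot be compared. The call of Pxn rests on the brighter of them.

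**Figure D2:**
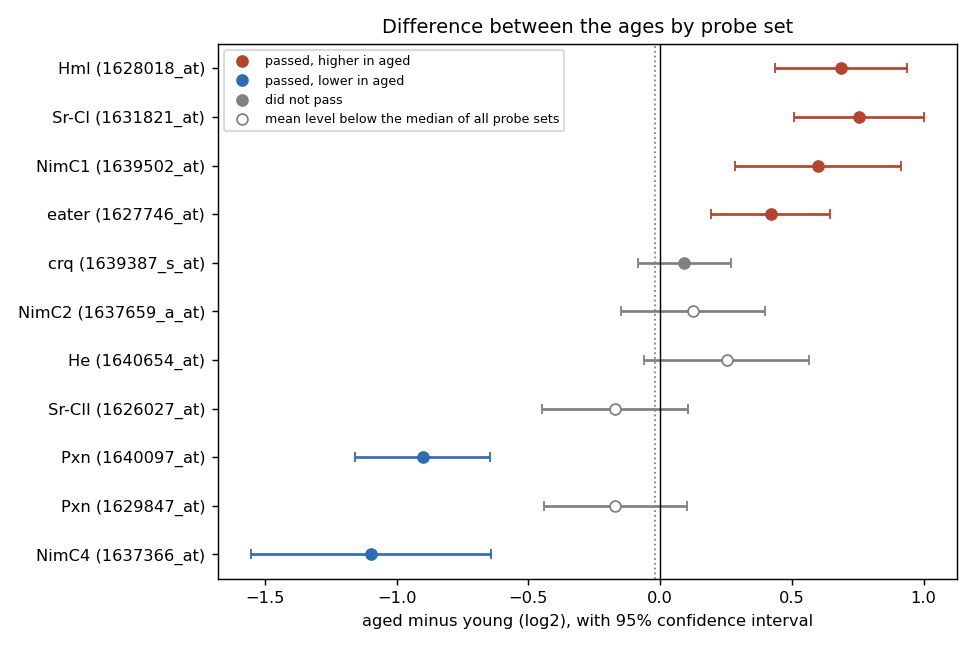
Aged minus young difference (log2) of each probe set with its 95% confidence interval from limma; red and blue mark probe sets that passed, grey those that did not, and open symbols those with a mean level below the median of all probe sets. The dotted line is the median difference of all probe sets, -0.02, and the interval of crq does not reach those of Hml and Sr-CI.

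The gene crq (CG4280, on 2L) encodes Croquemort, a CD36-family receptor for apoptotic cells. It had values of 9.86, 9.78 and 9.87 in aged heads, against 9.68, 9.86 and 9.70 in young heads, and the ages overlapped. Its difference was 0.09 ± 0.08 (adjusted p = 0.432). The probe set was well above the dim range, and its 95% confidence interval, -0.09 to 0.27, ended below the lower ends of those of Hml (0.43) and Sr-CI (0.51). Its ID ends in _s_at, which marks probes that can match more than 1 gene. The same holds for other genes named below, among them Col4a1, LanB1, ced-6, CG7720 and Agpat4.

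The other 3 genes gave dim signal. He (CG31770, on 2L) encodes hemese, a glycosylated surface protein of haemocytes. It read 3.68, 3.96 and 3.76 in aged heads, against 3.31, 3.52 and 3.80 in young heads, a difference of 0.25 ± 0.13 (adjusted p = 0.224). NimC2 (CG18146, on 2L), a Nimrod relative of NimC1, read 4.90, 4.75 and 5.15 in aged heads and 4.96, 4.74 and 4.72 in young heads, a difference of 0.13 ± 0.12 (adjusted p = 0.493). Sr-CII (CG8856, on 2R), a relative of Sr-CI, read 2.74, 2.65 and 2.52 in aged heads and 2.62, 2.76 and 3.04 in young heads, a difference of -0.17 ± 0.12 (adjusted p = 0.350). The ages overlapped in each of the 3, and no direction can be read from them. He, a marker of all haemocyte types, lay below the median level of all probe sets on each of the 6 arrays.

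A change in the number of 1 cell type would shift the RNA of genes read from it alone by the same factor. The values of the 9 other genes were therefore set against Hml on the same array, which also removes any scaling of the array. Whether any of these genes is read from haemocytes alone in a head was not tested. Nor was it tested whether equal shifts in RNA give equal shifts in RMA value at different levels. Relative to Hml, Sr-CI moved by 0.07 (95% interval -0.05 to 0.19, from the t distribution with 4 degrees of freedom) and NimC1 by -0.09 (-0.59 to 0.42), and the arrays of the ages overlapped in both. The interval of NimC1 is wide and also holds a change of 0. For eater the shift was -0.26 (-0.39 to -0.14): its values minus Hml were -2.43, -2.34 and -2.49 in aged heads, against -2.17, -2.17 and -2.14 in young heads, with no overlap. The background for such separation is high, because Hml itself rose: relative to Hml, 89.5% of the other 18768 probe sets separated the ages, 88.8% lower on all aged arrays.

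The other 6 genes lay lower relative to Hml on every aged array than on every young array. For He the margin was slim, with -5.184 on aged replicate 2 and -5.177 on young replicate 1. The shift was -0.59 for crq (-0.97 to -0.22), -1.59 for Pxn (-1.87 to -1.30) and -1.78 for NimC4 (-2.61 to -0.96). It was -0.56 for NimC2 (-0.89 to -0.23), -0.43 for He (-0.96 to 0.09, which holds 0) and -0.86 for Sr-CII (-1.45 to -0.27), whose signals were dim. In all, 7 of 9 genes separated the ages relative to Hml, against 89.5% of all other probe sets, so this count does not set them apart, and a gene that did not change lies lower relative to Hml through the rise of Hml alone. In an exact two-sided permutation test over arrays each of these 7 gave p = 0.1, the smallest that 3 against 3 arrays allow, and an adjusted p of 0.129 over the 9 comparisons, so the design cannot take this test past 0.05. In the same exact test Sr-CI gave p = 0.3 and NimC1 p = 0.7.

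**Figure D3:**
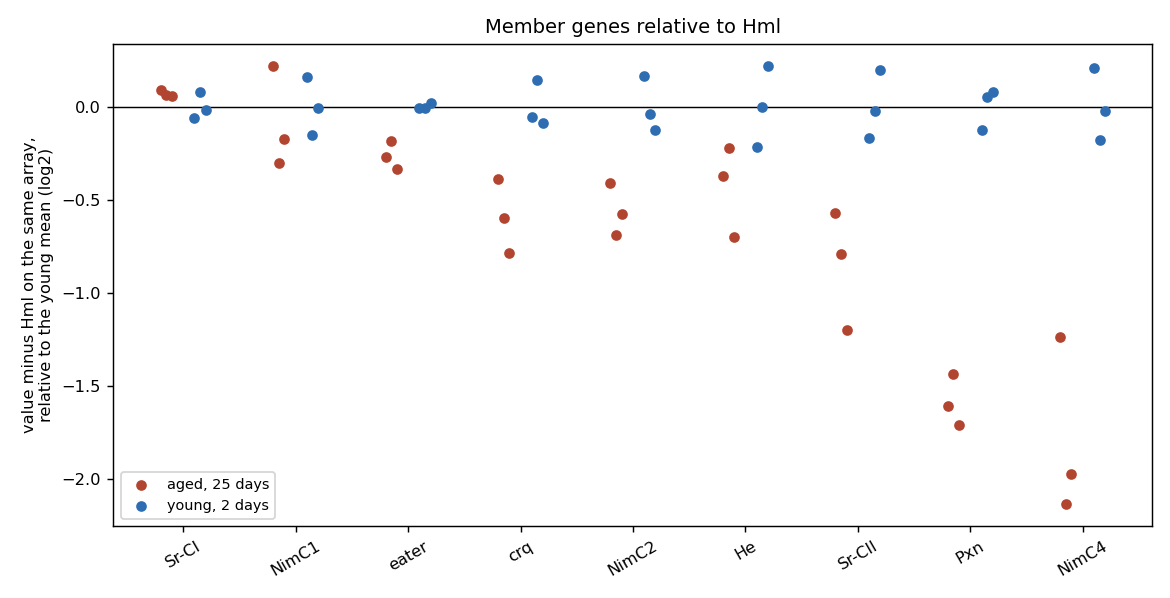
Value of each gene minus Hml on the same array (log2), drawn relative to the young mean, for aged heads (red, left) and young heads (blue, right); each point is 1 array. Sr-CI and NimC1 overlap between the ages, and the other 7 genes lie lower relative to Hml on all aged arrays, as do 88.8% of all other probe sets.

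The array profile of Sr-CI was close to that of Hml. With each gene's 6 values centred on their mean, the root mean square distance between the profiles was 0.06 log2 units. By this measure Hml was the nearest of 7536 genes at or above the median level to Sr-CI, and Sr-CI the 3rd nearest to Hml. The other 2 genes that rose were farther off. From Hml, eater ranked 167th at a distance of 0.14 and NimC1 591st at 0.19. Any gene with a rise of similar size lies near by this measure, whatever its role.

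The 2 nearest genes to Hml were CG7720 (0.66 ± 0.10, aged minus young) and CG30154 (0.70 ± 0.10), and the nearest to Sr-CI after Hml was Ku80 (0.75 ± 0.09), which encodes a DNA end-binding protein. To NimC1 they were mthl2, of the Methuselah-like receptor family (0.58 ± 0.10), and CG5800 (0.53 ± 0.12). To eater they were CG6553 (0.43 ± 0.10) and Agpat4, which encodes an acyltransferase of phospholipid synthesis (0.43 ± 0.10). CG13082 (-0.93 ± 0.10) and CG8854 (-0.89 ± 0.13) were nearest to Pxn, and CG4962 (-0.94 ± 0.19) and obst-A, which encodes a chitin-binding protein (-1.12 ± 0.08), to NimC4.

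He and the 3 NimC genes lie together on chromosome arm 2L, in an array of genes that also holds the remaining Nimrod genes (RefSeq, Release 6 plus ISO1 MT, used for gene order). From NimA to NimC4 the annotation has 11 genes of He and the Nimrod family and 11 others. All 11 of the first kind were measured: 3 rose, 1 fell and 7 did not pass, with a median difference of 0.25. Here 26.5% of all 11983 genes passed, 15.8% higher and 10.7% lower. Members of the array passed in both directions. NimC4, at 1 end, fell by 1.10, whereas NimB2, NimB5 and NimC1 rose by 0.56 to 0.60. Of the 11 other genes 5 were measured, of which bgm and its relative hll rose and 3 did not pass. The gene bgm (0.47 ± 0.07) encodes a very long chain acyl-CoA synthetase. For hll the difference was 0.98 ± 0.27 (limma adjusted p = 0.0398), with means in the dim range at both ages, 4.88 in aged and 3.89 in young heads.

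**Figure D4:**
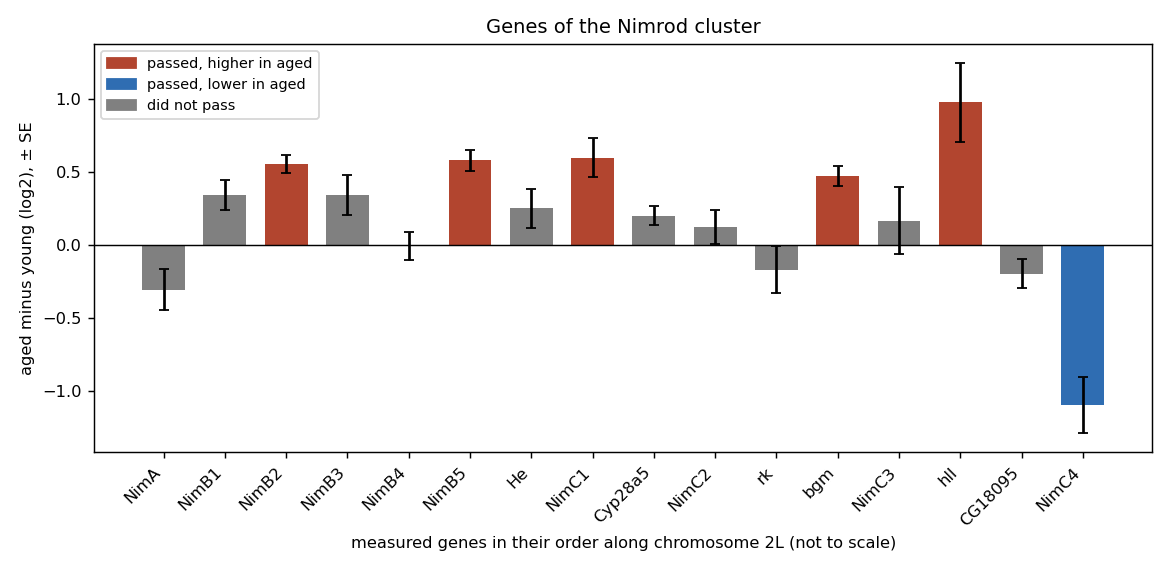
Aged minus young difference (log2, bars, with SE) of the measured genes from NimA to NimC4 in their order along chromosome arm 2L. NimB2, NimB5, NimC1, bgm and hll passed upwards and NimC4 passed downwards.

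Of 8 other receptor genes of the Nimrod and Draper families measured, 2 rose, 0 fell and 6 did not pass. The median difference was 0.25, against 0.00 over all genes, of which 26.5% passed, 15.8% higher and 10.7% lower. NimB2 and NimB5 encode secreted Nimrod proteins. NimB2 read 10.79, 10.75 and 10.73 in aged heads and 10.24, 10.15 and 10.20 in young heads (0.56 ± 0.06, adjusted p = 0.00148). NimB5 read 7.63, 7.54 and 7.70 in aged heads and 7.11, 6.98 and 7.05 in young heads (0.58 ± 0.07, adjusted p = 0.0023). Both shifts were close in size to those of Hml and NimC1. NimA, dim at both ages, differed by -0.30 ± 0.14 and passed downwards without young replicate 2 (-0.44, adjusted p = 0.0384). The engulfment receptor gene drpr, which glia also use, differed by 0.01 ± 0.07 (adjusted p = 0.965).

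Of 8 other class B and class C scavenger receptor genes, 2 rose, 1 fell and 5 did not pass (median 0.11). Among all genes 26.5% passed, 15.8% higher and 10.7% lower. Snmp2, of the CD36 family, rose by 0.51 ± 0.09 (1.14 at its other probe set, which also passed) and santa-maria, a carotenoid uptake receptor, by 0.25 ± 0.07, a call lost without young replicate 2 (adjusted p = 0.0776) or aged replicate 3 (0.0845). The carotenoid receptor gene ninaD fell to 3.89 ± 0.10 in aged heads, against 5.33 ± 0.09 in young heads, a difference of -1.44 ± 0.08 that ends in the dim range. Sr-CIII and Sr-CIV, the remaining relatives of Sr-CI on the list, were both dim (0.03 and -0.01, not passed), so Sr-CI was the one class C receptor gene measured above the median level. Of 9 genes of the engulfment machinery 4 had a probe set with 1 gene symbol. Of these ced-6, which encodes an adaptor of phagocytic receptors, rose by 0.51 ± 0.08, while the other 3 did not pass (median 0.25).

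The genes of basement membrane proteins, which Pxn acts on, passed more often downwards than upwards. Over all genes 10.7% passed downwards and 15.8% upwards. Of 11 measured, 1 rose, 6 fell and 4 did not pass, with a median of -0.33 where all genes had 0.00. Col4a1, which encodes a chain of collagen IV, read 8.96, 9.10 and 9.19 in aged heads, against 10.40, 10.25 and 10.31 in young heads, and fell by 1.24 ± 0.08 (adjusted p = 1.72e-04). The other collagen IV chain gene, vkg, fell by 0.72 ± 0.09. The perlecan gene trol fell by 1.28 ± 0.07, although only 2 of its 7 other probe sets passed and these 7 ranged from -1.19 to 0.14. Ndg (-0.76), LanB1 (-0.51) and Mp (-0.33, with 0.49 at its other probe set, which also passed) fell as well. Ndg was dim at both ages, with means of 3.90 in aged and 4.66 in young heads. Mp did not pass without young replicate 2 (limma adjusted p = 0.0702) or aged replicate 3 (0.0737). The papilin gene Ppn rose by 0.60 ± 0.10. The gene for the collagen-binding protein SPARC differed by -0.04 ± 0.07. Collagen IV is made by fat body as well as by haemocytes.

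Genes that direct blood cell fate, and markers of the other blood cell types, passed in both directions. Over all genes 26.5% passed, 15.8% higher and 10.7% lower. Of 9 measured fate genes, 1 rose, 1 fell and 7 did not pass (median 0.10). The GATA factor gene srp, needed for haemocytes and for fat body, read 8.73, 8.65 and 8.78 in aged heads and 7.83, 8.23 and 7.86 in young heads, a rise of 0.75 ± 0.11 (adjusted p = 0.00456). Its cofactor gene ush differed by 0.37 ± 0.17 (adjusted p = 0.171) and the receptor gene Pvr by -0.01 ± 0.10 (adjusted p = 0.932). The gene kn, which encodes a transcription factor that neurons and muscle use as well, fell by 0.60 ± 0.12 (a second probe set, at -0.19, did not pass). Of 7 crystal cell and lamellocyte markers, 1 rose, 2 fell and 4 did not pass (median 0.04). The crystal cell prophenoloxidase gene PPO1 read 8.27, 8.42 and 8.58 in aged heads and 7.84, 7.88 and 7.79 in young heads, a rise of 0.59 ± 0.09 (adjusted p = 0.00484), but PPO2, of the same cells, differed by -0.11 ± 0.10 (adjusted p = 0.476). The fallen genes were mspo (-0.65 ± 0.08) and peb (-0.53 ± 0.11), which is also a gene of photoreceptor cells and did not pass without young replicate 2 and aged replicate 3 together (adjusted p = 0.0538), and the lamellocyte markers PPO3 and ItgaPS4 were dim at both ages. Of 10 opsonin and clotting genes 4 were measured: Tep4 rose by 0.29 ± 0.07, Tep3 (-0.44 ± 0.09) and Tig (-0.30 ± 0.08) fell, and fon did not pass (median -0.06). Without aged replicate 3, Tep4 (0.30, adjusted p = 0.0526) and Tig (-0.29, adjusted p = 0.102) did not pass.

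**Figure D5:**
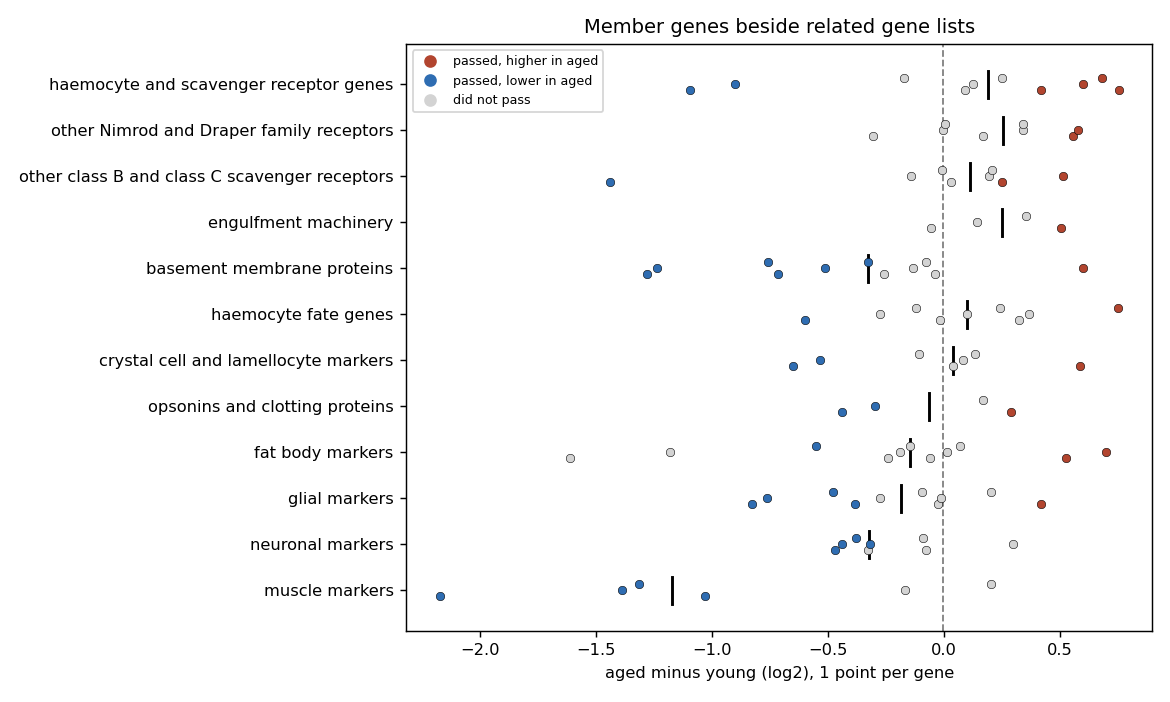
Aged minus young difference (log2) of each measured gene, by list, 1 point per gene; black bars are list medians and the dashed line is the median of all genes, 0.00. The 4 red points of the first row are Sr-CI, Hml, NimC1 and eater. Of 11 basement membrane genes 6 passed downwards, as did Pxn, where 10.7% of all genes did so.

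Markers of other tissues of the head passed in part, where 26.5% of all genes passed, 15.8% higher and 10.7% lower. Muscle markers passed downwards in 4 of 6 genes, and their summed level was 11.81 to 12.42 on aged arrays and 12.78 to 12.97 on young arrays (log2), highest of the aged arrays on replicate 3. Neuronal markers fell in 4 of 8 genes (12.93 to 13.10 on aged and 13.24 to 13.33 on young arrays). Without aged replicate 3, brp, Appl and cpx did not pass, which left 1. Without young replicate 2, Appl did not pass (limma adjusted p = 0.0640). Of 10 glial markers 1 rose and 4 fell (13.41 to 13.52 on aged and 13.70 to 13.79 on young arrays). With both young replicate 2 and aged replicate 3 left out, 0 rose and 3 fell, as Gli and Gs2 did not pass. Of 11 fat body markers 2 rose and 1 fell, and the summed levels overlapped (14.24 to 14.49 on aged and 14.38 to 14.55 on young arrays). On this list Yp1 (-1.18 ± 1.33) and Yp2 (-1.61 ± 1.01) varied widely between arrays of an age. The median SE over all probe sets was 0.09. RMA values have no true zero. The neuronal gene elav (-0.09 ± 0.07, adjusted p = 0.391) and the glial gene repo (-0.03 ± 0.07, 0.819) did not pass. Nor did the fat body gene apolpp (0.07 ± 0.06, 0.479), and these genes were well above the dim range at both ages. Other genes of the same lists passed, among them Csp (-0.47), nrv2 (-0.83) and Apoltp (0.70). The neuronal gene nSyb differed by 0.30 ± 0.11 (adjusted p = 0.0984). The 3' minus 5' difference of control probe sets was also lower in aged samples. For fly messenger RNAs it is a measure of RNA and labelling. For bacterial spike-ins, which were added before labelling, it is a measure of labelling and later steps, not of fly RNA. The difference was 1.26 to 1.32 in aged and 1.74 to 1.95 in young samples for 3 fly messenger RNAs. For 3 bacterial spike-ins it was 0.70 to 0.94 in aged and 1.61 to 1.85 in young samples (exact permutation p = 0.1 for each set, the smallest possible). The part of tissue makeup and of labelling in the differences of the haemocyte genes was not tested.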

How the data were processed

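The authors deposited log2 RMA values, 1 per probe set and array; per the submitters' processing notes, RMA and limma were used (versions and settings: not given in the sources used here). The method corrects background, equalises the distributions of the arrays and summarises probes, so a change in total messenger RNA per head is set aside. Of 18952 probe sets, 183 controls were left out. Of the 18769 tested, 13647 had 1 gene symbol, 402 several and 4720 none; 13544 of the first matched RefSeq (Release 6 plus ISO1 MT) by gene ID, including all 10 genes described. The test was limma (version 3.58.1, R version 4.3.3; lmFit and eBayes on 6 arrays without covariates), adjusted over all probe sets. Except for the 11 probe sets, a gene was read through its probe set with the highest mean. A gene counts as measured only if a probe set has it as its only gene, so other genes may still be on the platform. The named genes are all members, up to 3 per list (the largest differences that passed, with the higher mean at or above the median level, otherwise the smallest p) and the 2 nearest profiles per member that passed; others named in the lists or beside them were chosen after their values were seen. The members and lists were chosen with earlier results of these data known. Alternatives were a robust trended prior, a filter on dim probe sets, median centring, quantile normalization, array weights, leaving out _s_at and _x_at probe sets, 1 probe set per gene, a replicate block, and leaving out arrays; the gene lists were rerun without young replicate 2 and aged replicate 3, a choice made after seeing the data.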

Additional observations from a re-analysis of the deposited data

How the results depend on the processing

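The directions of Hml, Sr-CI, NimC1, eater, NimC4 and the brighter probe set of Pxn held in all 15 alternatives, and Hml, Sr-CI, NimC4 and Pxn passed in each, with differences of 0.56 to 0.77 for Hml, 0.65 to 0.83 for Sr-CI, -1.28 to -0.90 for NimC4 and -0.98 to -0.80 for Pxn. Between 4 and 6 of the 11 probe sets passed; the calls lost were those of NimC1 and eater described above. NimC2 changed sign without young replicate 2 and aged replicate 3 together (-0.014, adjusted p = 0.950). Over all probe sets, 4071 passed, against 2492 without those 2 arrays and 2302 to 4027 with each array left out in turn, the lowest without aged replicate 1 and 2432 without aged replicate 2; these fits have fewer arrays by construction. Centring each array on its median moved the median difference of all probe sets to -0.06. Relative to Hml, NimC1 lay between -0.238 and 0.023 as each array was left out, and changed sign without aged replicate 2. Deviations of same-numbered arrays of the ages correlated at 0.10, -0.02 and -0.06. With 3 arrays per age, these values cannot tell whether the numbers pair the arrays. With a replicate block 3343 probe sets passed, among them the same 6 of the 11. Dim signal limits NimC2, He, Sr-CII and the second probe set of Pxn.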
